A study of Homo sapiens with 6 samples.

Results

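The 52 genes described here encode proteins of mitosis, the spindle and the kinetochore. They were chosen by name from the rows of the deposited count table, with earlier results of these data known. Their counts and shares below may therefore not be independent of that choice. All 52 were found among its 25445 rows. They were measured by RNA-seq in MHCC-97H cells, an established human hepatocellular carcinoma line, cultured in DMEM with fetal bovine serum and penicillin-streptomycin. The 6j treated cells received 6j, a compound derived from the alkaloid sophoridine, at 10 μM for 16 h, and the non-treated cells received solvent alone for the same time. Each group had 3 libraries, numbered 1 to 3, and all came from this 1 cell line without genetic change. The labels do not say whether the libraries came from separate cultures, so the p-values measure the spread between these libraries, which may be technical. In a pool of cells, fewer dividing cells and less RNA per dividing cell cannot be told apart.

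The total count was 31533403 to 37919879 in the non-treated libraries and 35002336 to 38018349 in the 6j treated libraries, and the 52 genes had 435 to 23351 counts per library. Levels are given as CPM, the count divided by the TMM-normalized library size and scaled to a common total. All 52 genes were among the 15957 rows tested by edgeR. The libraries numbered 3 stood apart from the others on the second principal component. The labelled liver origin was weakly visible in the markers. Of 15 liver lineage genes, TTR, FOXA2 and GPC3 had 0 counts in all 6 libraries, which allows up to 3 counts in each, and ALB had 0 counts in every library except 6j replicate 2, with 8. Their summed level of 905 to 1110 CPM in non-treated and 706 to 825 CPM in 6j treated cells came almost wholly from KRT8 and KRT18, the keratins of simple epithelia, and KRT8 fell by 0.58 on the log2 scale (edgeR adjusted p = 0.0211). The summed level of 6 fibroblast markers was 269 to 329 CPM against 248 to 315 CPM. It came almost wholly from COL1A1 and COL3A1, with COL1A2 at 0 counts throughout. For 6 immune cell markers the sum was 40.4 to 70.8 CPM against 42.5 to 53.2 CPM, almost wholly from CD68, with PTPRC and CD3E at 0 counts. For 5 endothelial markers it was 2.38 to 6.31 CPM against 2.24 to 4.03 CPM. The part of any of these genes in the results below was not tested.

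Cells divide by a fixed order of steps. Cyclins and CDK1 start mitosis, kinesins and microtubule binding proteins build the spindle, and kinetochores tie the chromosomes to it. The spindle checkpoint holds the anaphase promoting complex until every kinetochore is attached, after which securin and cyclin B are destroyed, the sister chromatids part and the central spindle directs the cut between the daughter cells. Most of these genes are transcribed in a wave in G2 and M phase, under B-MYB, FOXM1 and the MuvB core, which acts through a promoter element called the cell cycle genes homology region (CHR), often with CCAAT boxes bound by NF-Y nearby. In resting or arrested cells the same core, as part of the DREAM complex, represses them. Raised mRNA of such genes is known in many tumors, liver cancer among them.

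The mRNA of 11 of the 52 genes (21.2%) was lower in 6j treated cells at an edgeR adjusted p under 0.05, beside 4.37% of all rows tested. These were KIF20A, CDC20, CCNB1, SPC25, PTTG1, CDK1, PLK1, INCENP, DLGAP5, CCNA2 and BUB1B, with 6j treated levels at 66.7% to 79.8% of the non-treated levels. None of the 52 was higher, beside 4.79% of all rows, and none was higher by DESeq2 or at an unadjusted p under 0.05 in edgeR. The changes were small. No gene passed both the adjusted p and a fold change above 1.5, beside 1.12% of all rows that were lower by this rule, and none did so by DESeq2 or with the unadjusted p in edgeR. KIF20A came nearest, with a log2 fold change of −0.584 against the threshold of −0.585. For 29 of the 52 genes (55.8%) all 3 6j treated libraries lay below all 3 non-treated libraries, beside 15.8% of all rows, and all 11 genes past the test were among them.

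The direction was shared more widely than the test's calls. The log2 fold change was below 0 for 46 of the 52 genes, with a median of −0.18, whereas 49.3% of all rows tested were below 0 and their median was 0.00. The summed level of the 52 genes averaged 8225 ± 51.2 CPM in the non-treated group and 7107 ± 330 CPM (both SD, n = 3) after 6j, or 86.4% of the former. It was 8167, 8247 and 8261 CPM in the non-treated libraries and 7134, 6764 and 7422 CPM in the 6j treated libraries, so the groups did not overlap. Libraries of the same number deviated together, and a fit with the replicate number as a block called 27 of the 52 genes lower (51.9%), beside 13.9% of all rows. DESeq2 without the block called 20 (38.5%), beside 8.01% of the rows to which it gave an adjusted p. All 11 genes also passed in both of these fits. When replicate 1 was removed from the non-treated group, or replicate 2 from the 6j treated group, KIF20A alone of the 52 passed in edgeR, and the rows called in the whole table went from 1462 to 202 and 217. Removal of non-treated replicate 2 or 3 left 3 and 6 of the 52 genes, where 716 and 625 rows of the whole table passed. Without both libraries numbered 3, 8 of the 52 genes passed, beside 845 rows, and the median of the 52 was −0.23.

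**Figure D1:**
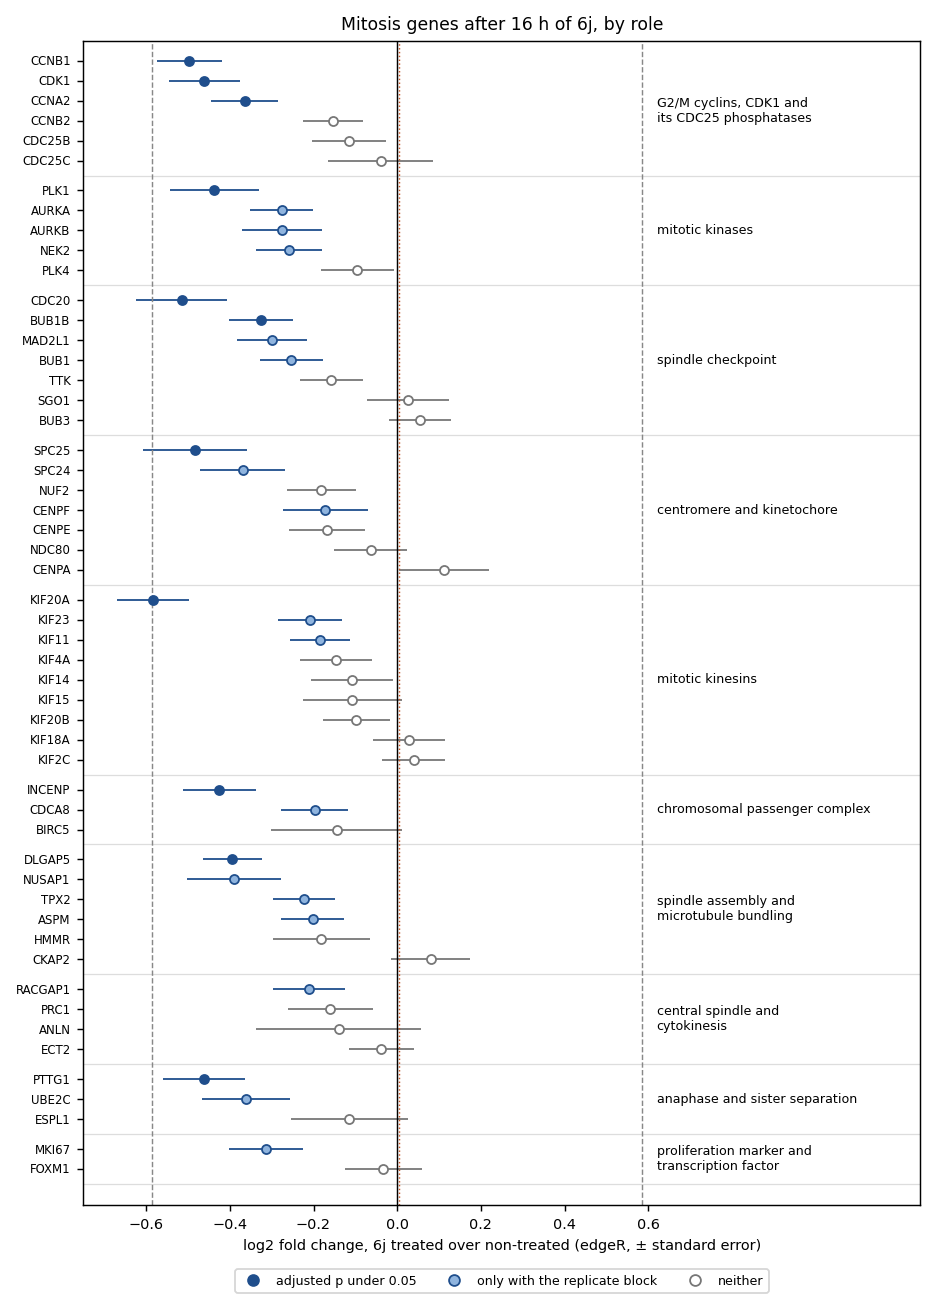
Log2 fold change of each of the 52 genes (horizontal axis, 6j treated over non-treated, edgeR), grouped by role, with bars of 1 standard error. Filled dark points are the 11 genes past the test, light points the 16 that passed with the replicate block only and open points the other 25, dashed lines mark a fold change of 1.5 in either direction, the dotted line marks the median of all rows tested (0.00), and 46 of the 52 points lie left of 0.

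Promoter sequence is shown for the 6 genes with the smallest adjusted p, because the CHR and CCAAT elements through which cell cycle control is known to act on such genes can be read in it. Each line gives the 150 bases before the RefSeq transcription start (GRCh38.p14), 5′ to 3′ on the strand of the gene. Capitals mark a CHR match, searched as TTTGAA or TTTAAA, or an NF-Y box match, searched as CCAAT, on either strand, so that TTCAAA and ATTGG are the same elements read from the other strand. The windows are chr5:138178962-138179111 (plus strand) for KIF20A, chr5:69167000-69167149 (plus) for CCNB1, chr14:55191586-55191735 (minus) for DLGAP5, chr10:60778181-60778330 (plus) for CDK1, chr11:62123861-62124010 (plus) for INCENP and chr1:43358831-43358980 (plus) for CDC20.
KIF20A: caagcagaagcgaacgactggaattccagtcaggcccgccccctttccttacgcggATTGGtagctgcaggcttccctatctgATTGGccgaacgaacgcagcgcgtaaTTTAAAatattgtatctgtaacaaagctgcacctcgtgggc
CCNB1: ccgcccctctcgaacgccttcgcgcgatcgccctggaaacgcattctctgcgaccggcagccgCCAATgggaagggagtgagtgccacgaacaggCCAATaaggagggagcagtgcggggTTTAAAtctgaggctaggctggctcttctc
DLGAP5: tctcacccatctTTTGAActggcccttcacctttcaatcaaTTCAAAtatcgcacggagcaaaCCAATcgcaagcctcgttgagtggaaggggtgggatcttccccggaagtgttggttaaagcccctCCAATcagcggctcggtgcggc
CDK1: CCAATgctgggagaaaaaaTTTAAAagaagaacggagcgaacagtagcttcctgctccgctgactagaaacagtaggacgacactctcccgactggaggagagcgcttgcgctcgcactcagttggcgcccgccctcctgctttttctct
INCENP: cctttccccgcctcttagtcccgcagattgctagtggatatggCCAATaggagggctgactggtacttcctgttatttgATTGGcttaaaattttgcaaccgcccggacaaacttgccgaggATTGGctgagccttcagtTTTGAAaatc
CDC20: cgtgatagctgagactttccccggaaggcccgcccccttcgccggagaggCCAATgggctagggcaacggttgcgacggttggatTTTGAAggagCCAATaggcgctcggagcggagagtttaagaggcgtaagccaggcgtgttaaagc
KIF20A and CCNB1 each held 1 CHR match downstream of a pair of NF-Y boxes, at −41 and −30 from the start, while in CDK1 both kinds of match lay more than 100 bases upstream of it. A match is a description of letters and not a measured binding site.

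The genes are given below by role, in sets of 2 to 9, beside the 4.37% of all rows that were lower, or 13.9% with the replicate block. Counts of 1 or 2 genes in a role are given as single values and not as results about that role. Among the cyclins, CDK1 and the CDC25 phosphatases that activate it, 3 of 6 genes fell. CCNB1 encodes cyclin B1, the partner of CDK1 in mitosis, and lies at chr5:69167010-69178245 (plus strand, GENCODE 29, GRCh38). Its level was 239, 242 and 247 CPM in the non-treated libraries and 177, 160 and 179 CPM in the 6j treated libraries. The non-treated libraries differed by little and all lay above the 6j treated ones, and the log2 fold change was −0.50 (SE 0.08, edgeR adjusted p = 0.00957). CDK1, the kinase that drives entry into mitosis (chr10:60778331-60794852, plus), was at 193, 207 and 195 CPM against 148, 153 and 131 CPM, a fold change of −0.46 on the log2 scale (SE 0.08, edgeR adjusted p = 0.0142). CCNA2, the cyclin of S phase and G2 (chr4:121816444-121823933, minus), was at 143, 139 and 132 CPM against 114, 101 and 107 CPM, with a log2 fold change of −0.36 (SE 0.08, edgeR adjusted p = 0.0254). Neither gene's groups overlapped. CCNB2, the other B-type cyclin of mitosis, was at 126, 121 and 128 CPM against 112, 113 and 111 CPM, also without overlap, but at a log2 fold change of −0.15 it passed neither edgeR (adjusted p = 0.213) nor the fit with the replicate block (adjusted p = 0.0965). CDC25B and CDC25C had log2 fold changes of −0.12 and −0.04, and their groups overlapped. CDC25C was the lowest of the 52 genes per length, at 5.75 CPM per kilobase of exon in non-treated cells, and CCNB1 was the highest, at 94.9.

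Of 5 mitotic kinases, PLK1 fell and 3 others passed with the replicate block only. PLK1, which acts in centrosome maturation, mitotic entry and cytokinesis (chr16:23677656-23690367, plus), was at 186, 182 and 176 CPM in non-treated and at 157, 120 and 125 CPM in 6j treated cells. The first 6j treated library lay closest to the non-treated ones without reaching them, and the log2 fold change was −0.44 (SE 0.11, edgeR adjusted p = 0.0369). AURKA, the Aurora kinase of the spindle poles, was at 162, 166 and 155 CPM against 139, 132 and 128 CPM, a log2 fold change of −0.28 (SE 0.08) with an edgeR adjusted p of 0.0529, and of 0.00691 with the block. AURKB, the kinase of the chromosomal passenger complex, was at 95.5, 92.4 and 83.3 CPM against 83, 71 and 70 CPM. The highest 6j treated library came within 1 CPM of the lowest non-treated library, and the edgeR adjusted p was 0.105, and 0.00644 with the block. NEK2, a kinase of centrosome separation, was at 112, 115 and 116 CPM against 93.7, 90.4 and 102 CPM, with an edgeR adjusted p of 0.0726, and 0.0101 with the block. PLK4, the kinase that starts centriole duplication, had a log2 fold change of −0.10 (SE 0.09, edgeR adjusted p = 0.54).

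Of 7 spindle checkpoint genes, CDC20 and BUB1B fell. CDC20 is the activator of the anaphase promoting complex that the checkpoint holds back (chr1:43358955-43363203, plus). It was at 167, 150 and 168 CPM in non-treated and at 130, 99.5 and 110 CPM in 6j treated cells, and the log2 fold change was −0.51 (SE 0.11, edgeR adjusted p = 0.022). BUB1B, which encodes the checkpoint protein BUBR1 (chr15:40161023-40221136, plus), was at 122, 117 and 117 CPM against 100, 92.6 and 91.1 CPM, with a log2 fold change of −0.32 (SE 0.08, edgeR adjusted p = 0.0323). In both genes the groups were apart, and in both the first 6j treated library was the highest of its group. MAD2L1, whose product MAD2 binds CDC20, was at 77.5, 66.9 and 75.1 CPM against 57.7, 60.1 and 60.5 CPM, with an edgeR adjusted p of 0.0563, and 0.00699 with the block. BUB1, a kinase of the kinetochore, had a log2 fold change of −0.25 and passed with the block only (edgeR adjusted p = 0.0646, and 0.0122 with the block). TTK, the kinase that starts checkpoint signaling, had a log2 fold change of −0.16 and passed in neither fit. BUB3, which carries BUB1 and BUBR1 to the kinetochore, was at 267, 265 and 272 CPM against 274, 272 and 290 CPM, and SGO1, the protector of centromeric cohesion, was at 27.7, 32.8 and 29.2 CPM against 30.4, 30.8 and 30.1 CPM. Their log2 fold changes were 0.06 (95% interval −0.11 to 0.22) and 0.03 (−0.20 to 0.25).

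Of 7 centromere and kinetochore genes, SPC25 fell. SPC25 and SPC24 form the inner end of the NDC80 complex, whose outer end, NDC80 and NUF2, binds microtubules. SPC25 (chr2:168834132-168913371, minus) was at 20.6, 17.7 and 16.5 CPM in non-treated and at 13.5, 13 and 12.7 CPM in 6j treated cells. It was the least abundant of the 11 genes past the test, with 435 to 777 counts per library, and its log2 fold change was −0.48 (SE 0.12, edgeR adjusted p = 0.0438). Leaving out any 1 of the 6 libraries ended this call. SPC24 was at 40.3, 38.8 and 36.7 CPM against 30.6, 26.8 and 32.3 CPM, with a log2 fold change of −0.37 and an edgeR adjusted p of 0.0534, and 0.00981 with the block. NUF2 had a log2 fold change of −0.18 (95% interval −0.37 to 0.01) and NDC80 one of −0.06 (−0.26 to 0.13), and neither passed in either fit. A difference between the 4 subunits was not tested. CENPF, a large protein of the outer kinetochore, passed with the block only, at a log2 fold change of −0.17, and CENPE, the kinetochore kinesin, passed in neither fit at the same size of change. CENPA, the histone H3 variant that marks the centromere, was at 25.6, 25.9 and 29.8 CPM against 27.6, 31.8 and 28.4 CPM. Its log2 fold change of 0.11 (95% interval −0.13 to 0.35) was the highest of the 52 genes.

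KIF20A showed the largest change of all 52 genes and was the only one of 9 mitotic kinesins past the test. It encodes the kinesin MKLP2, which moves the chromosomal passenger complex to the central spindle in anaphase, and lies at chr5:138178719-138187715 (plus strand). Its level was 138, 153 and 141 CPM in the non-treated libraries and 97.6, 88 and 102 CPM in the 6j treated libraries. The nearest libraries of the groups were far apart relative to the spread within them (144 ± 8.1 against 95.9 ± 7.16 CPM, SD, n = 3). The log2 fold change was −0.58 (SE 0.09, edgeR adjusted p = 0.0085), and KIF20A was the only one of the 52 genes that passed whichever of the 6 libraries was left out. Among the other kinesins, KIF11 and KIF23 passed with the block only. KIF11, the motor that pushes the spindle poles apart, was at 159, 160 and 158 CPM against 145, 138 and 137 CPM, a log2 fold change of −0.18 with an edgeR adjusted p of 0.14, and 0.0443 with the block. KIF23, the motor subunit of centralspindlin, had a log2 fold change of −0.21. KIF4A, KIF14, KIF15 and KIF20B had log2 fold changes of −0.15 to −0.10 and passed in neither fit. KIF18A, which dampens chromosome movement at the metaphase plate, was at 35.9, 39.8 and 39.4 CPM against 39.4, 39.1 and 38.8 CPM. KIF2C, the microtubule depolymerase MCAK, was at 151, 150 and 148 CPM against 164, 147 and 151 CPM. Both groups overlapped, with log2 fold changes of 0.03 (95% interval −0.17 to 0.22) and 0.04 (−0.13 to 0.21).

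The 3 chromosomal passenger genes differed in how they spread over the libraries. INCENP, the scaffold on which AURKB is activated (chr11:62123973-62153163, plus), was at 132, 131 and 115 CPM in non-treated and at 90.4, 92.1 and 99.9 CPM in 6j treated cells. Its groups came nearest to each other in the libraries numbered 3, and the log2 fold change was −0.42 (SE 0.09, edgeR adjusted p = 0.0198). CDCA8, which encodes borealin, had a log2 fold change of −0.20 and passed with the block only (edgeR adjusted p = 0.153, and 0.0355 with the block). BIRC5, which encodes survivin, was at 167, 141 and 194 CPM against 149, 124 and 181 CPM. The groups overlapped, and within each number the 6j treated library was the lower one. Its log2 fold change was −0.15 (SE 0.16, edgeR adjusted p = 0.613), and with the block the adjusted p was 0.0931.

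Among 6 genes of spindle assembly and microtubule bundling, DLGAP5 fell and 3 passed with the block only. DLGAP5, which encodes HURP, a protein that stabilizes kinetochore fibres (chr14:55148112-55191678, minus), was at 103, 104 and 101 CPM in non-treated and at 79.5, 75.7 and 79.4 CPM in 6j treated cells. The groups were clearly apart, with an SD of 1.66 CPM in the non-treated and 2.17 CPM in the 6j treated libraries, and the log2 fold change was −0.39 (SE 0.07, edgeR adjusted p = 0.0138). NUSAP1, which bundles spindle microtubules, was at 232, 230 and 183 CPM against 176, 170 and 147 CPM. Its groups did not overlap and its spread followed the replicate number, so that the log2 fold change of −0.39 had an edgeR adjusted p of 0.0623, and 0.000851 with the block. TPX2, the activator of AURKA on the spindle, was at 311, 307 and 311 CPM against 271, 254 and 271 CPM, with a log2 fold change of −0.22 (SE 0.07), an edgeR adjusted p of 0.0946, and 0.0126 with the block. ASPM, a protein of the spindle poles, also passed with the block only, at a log2 fold change of −0.20. HMMR, a spindle assembly factor at −0.18, passed in neither fit. CKAP2, a microtubule stabilizer, was at 114, 128 and 142 CPM against 129, 134 and 142 CPM, with overlapping groups and a log2 fold change of 0.08 (95% interval −0.13 to 0.29).

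Of the 4 genes of the central spindle and cytokinesis, RACGAP1 alone passed, with the block only. RACGAP1, the GTPase activating subunit of centralspindlin, had a log2 fold change of −0.21 (edgeR adjusted p = 0.158, and 0.0194 with the block). PRC1, the bundler of antiparallel microtubules in the midzone, was at 270, 254 and 240 CPM against 250, 198 and 236 CPM, with overlapping groups and an edgeR adjusted p of 0.365. ANLN, the actin binding scaffold of the contractile ring, was at 511, 523 and 665 CPM against 434, 429 and 680 CPM. The libraries numbered 3 were the highest of both groups, and in that number the 6j treated library lay above the non-treated one. ECT2, the exchange factor that activates RhoA at the equator, had a log2 fold change of −0.04.

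Of 3 genes of anaphase and sister separation, PTTG1 fell. PTTG1 encodes securin, the inhibitor of separase (chr5:160421822-160428744, plus), and was at 109, 118 and 122 CPM in non-treated and at 84.5, 74.9 and 93.6 CPM in 6j treated cells. The highest 6j treated library was below the lowest non-treated one, and the log2 fold change was −0.46 (SE 0.10, edgeR adjusted p = 0.0223). UBE2C, the ubiquitin conjugating enzyme of the anaphase promoting complex, was at 88.6, 85.3 and 92.5 CPM against 75.2, 58.4 and 73.7 CPM, a log2 fold change of −0.36 with an edgeR adjusted p of 0.0634, and 0.0025 with the block. ESPL1, which encodes separase itself, was at 142, 151 and 104 CPM against 131, 126 and 110 CPM, with overlapping groups and an edgeR adjusted p of 0.659. The 2 remaining genes were a proliferation marker and a transcription factor. MKI67, the marker Ki-67, was at 555, 557 and 510 CPM against 424, 409 and 471 CPM, a log2 fold change of −0.31 (SE 0.09) with an edgeR adjusted p of 0.0579, and 0.00579 with the block. FOXM1, the factor that activates many genes of G2 and M phase, was at 316, 351 and 303 CPM against 340, 313 and 294 CPM, with overlapping groups and a log2 fold change of −0.03 (95% interval −0.24 to 0.17).

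**Figure D2:**
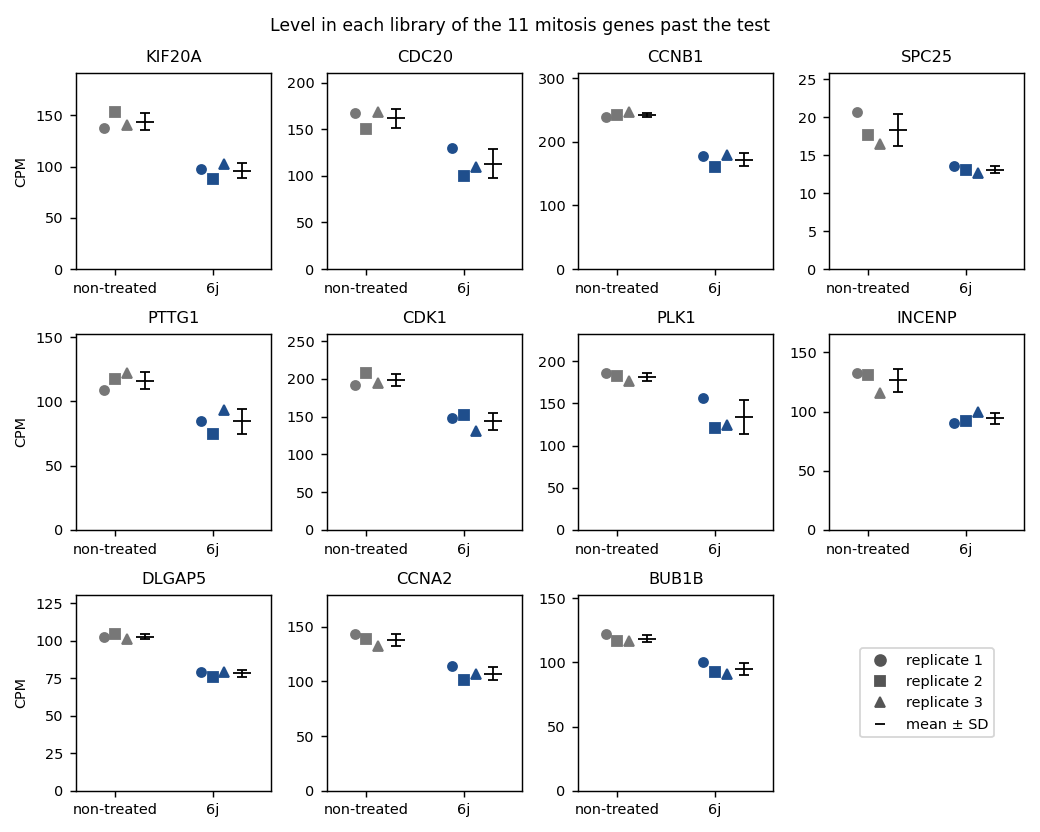
CPM in each library (vertical axis, from 0) of the 11 genes past the test, non-treated in grey and 6j treated in blue, with a symbol for each replicate number and the mean ± SD (n = 3) beside each group. In each panel the 3 blue points lie below the 3 grey points, for example at 160 to 179 CPM against 239 to 247 CPM for CCNB1.

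The shift could be followed within each replicate number. The median log2 ratio of the 6j treated to the non-treated library over the 52 genes was −0.18 in number 1, −0.27 in number 2 and −0.18 in number 3, where the medians over all rows tested lay at 0.00 in each. In number 1 the 6j treated library was the lower one for 44 of the 52 genes, in number 2 for 48 and in number 3 for 44. For 39 of the 52 (75%) it was lower in all 3 numbers, beside 28.7% of all rows. The library with the lowest level differed between the genes. 6j replicate 2 was the lowest of the 6 libraries for 22 of the genes, 6j replicate 3 for 14 and 6j replicate 1 for 9. How often each library was the lowest over all rows was not counted. Genes with large spread between numbers, such as ANLN, BIRC5, NUSAP1 and ESPL1, were those in which the number 3 libraries stood highest or lowest in both groups.

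**Figure D3:**
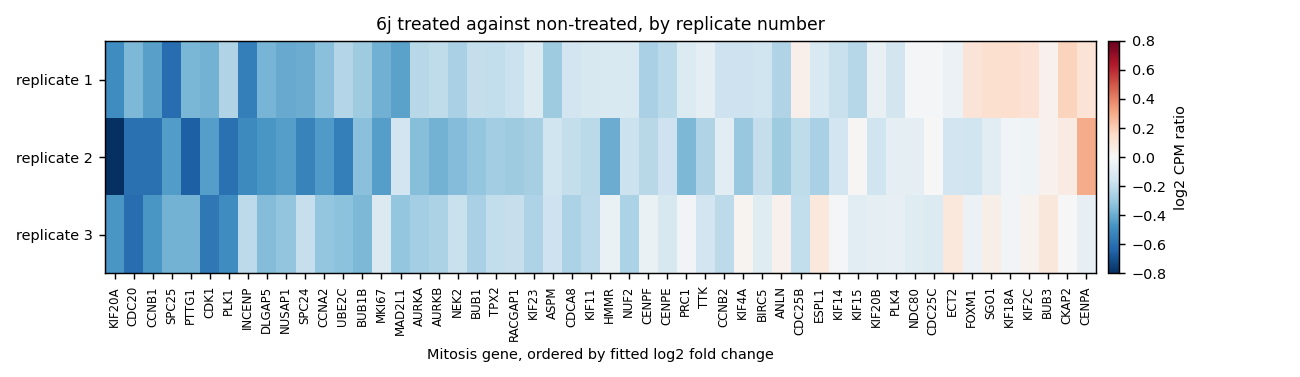
Log2 CPM ratio of the 6j treated to the non-treated library of the same replicate number (rows) for each of the 52 genes (columns, ordered by fitted log2 fold change), in blue where the 6j treated library is lower and red where it is higher. Of the 52 genes, 44, 48 and 44 are below 0 in replicate 1, 2 and 3.

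Other cell division genes were read from 8 further lists in the same fit, where their counts stand beside the 4.37% of all rows that were lower and the 4.79% that were higher. In lists with 1 or 2 genes lower past the test, these genes are given as single values and not as results about their lists. Among 29 other spindle, motor and cytokinesis genes, 8 fell, with a list median of −0.17. The largest changes in it were those of tubulins, the subunits of microtubules. TUBB4B was at 455, 422 and 400 CPM in non-treated and at 290, 213 and 229 CPM in 6j treated cells, a log2 fold change of −0.80 (SE 0.12, edgeR adjusted p = 0.00854), and TUBA1B and TUBB changed by −0.71 and −0.70. Of 32 other kinetochore and centromere genes, 2 fell, CENPX (−0.59) and ZWINT (−0.36), and the list median was −0.06. Of 22 subunits and partners of the anaphase promoting complex, ANAPC2 (−0.50) and ANAPC11 (−0.37) fell, with a median of −0.09. Of 19 cohesin, condensin and sister cohesion genes, NCAPG (−0.37) fell, with a median of −0.17. Of 23 centrosome and centriole genes, HAUS7 (−0.58) and TUBG1 (−0.57) fell and HAUS6 (0.47) rose, with a median of 0.00.

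Of 28 genes of G2/M control and the MuvB and DREAM complexes, CCNF (−0.54) and PBK (−0.33) fell, with a list median of −0.08. MYBL2, which encodes B-MYB, had a log2 fold change of −0.21 (edgeR adjusted p = 0.195), and WEE1, the kinase that holds CDK1 inactive, had one of 0.14 (edgeR adjusted p = 0.472). Of 30 genes of G1/S and replication, 5 fell, with a median of −0.17. Those with the smallest adjusted p were RRM2 (−0.53), TYMS (−0.51) and UHRF1 (−0.40), and CCND1 was at 136, 125 and 134 CPM against 98.7, 98.1 and 111 CPM. Of 19 CDK inhibitor and arrest genes tested, 3 rose and 2 fell, with a median of 0.09. The log2 fold changes of this list ran from −0.56 to 1.46. Only the 3 that rose, which had its smallest adjusted p, are named here. CDKN1A, which encodes the CDK inhibitor p21, was at 78, 85.9 and 85.9 CPM in non-treated and at 123, 183 and 194 CPM in 6j treated cells, a log2 fold change of 1.00 (SE 0.16, edgeR adjusted p = 0.0113). GADD45A, a stress gene that acts on CDK1 and cyclin B1, changed by 1.28, and SESN2, a stress gene that restrains mTORC1, changed by 1.46. The part of these genes in the lower levels of the 52 genes was not tested.

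**Figure D4:**
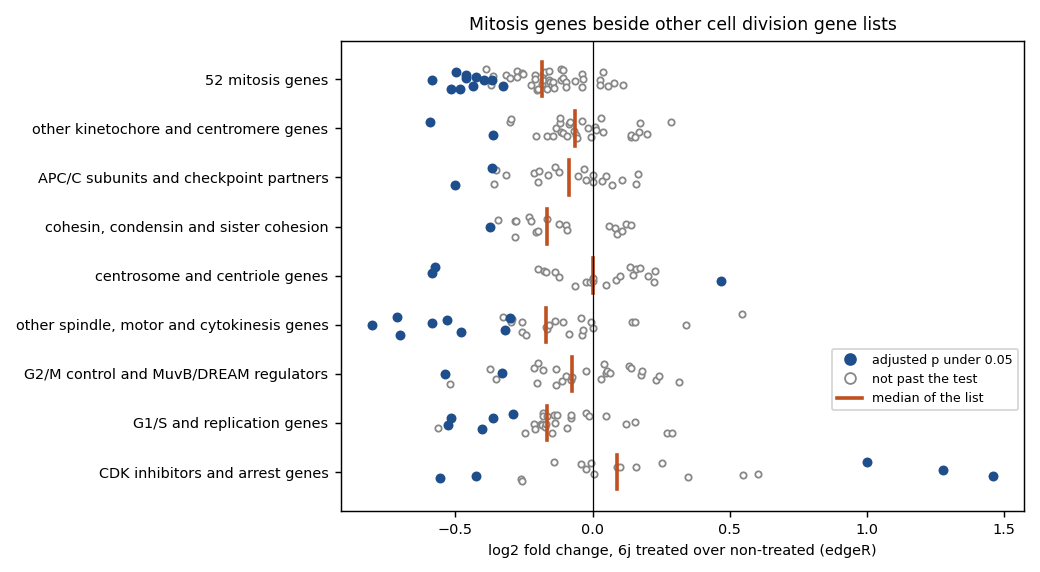
Log2 fold change (horizontal axis, 6j treated over non-treated, edgeR) of each gene of the 52 and of 8 further cell division lists (rows), with filled points past the test, open points not past it and a bar at the list median; points are spread vertically for display. The medians run from −0.18 for the 52 genes to 0.09 for CDK inhibitors and arrest genes, whose 3 rightmost points are CDKN1A, GADD45A and SESN2.

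The promoters of the 52 genes were searched for the elements marked in the sequences above, from 250 bases before to 50 after the RefSeq start. An entry was found for 44 of the 52. Of these 44, 35 (79.5%) held a CHR, 33 (75%) an NF-Y box and 27 (61.4%) both, and 20 (45.5%) held 2 or more NF-Y boxes. Among the 27305 promoters of the same length in the table, the shares were 24.3%, 35.7%, 9.49% and 11.3%. Among the 10440 promoters of genes tested they were 15.8%, 36.6%, 6.47% and 13.4%. The median position was −29 for the CHR (range −247 to 41) and −72 for the NF-Y box (range −249 to 13). Positions in other promoters were not compared. In 2 promoters matches overlapped each other. These genes were listed by their role in division, which is where the elements are known, so the shares describe the list and not the response to 6j.

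Within the list, the elements were compared with the fold changes as a description. All 11 genes past the test had an entry. CCNA2 lacked the CHR letters, BUB1B lacked an NF-Y box, and the other 9 held both. Of the 23 genes with an entry that passed with the replicate block, 22 (95.7%) held an NF-Y box, against 11 of the other 21 (52.4%). In the fit without the block, 10 of the 11 genes past the test (90.9%) held one, against 23 of the other 33 (69.7%). The median log2 fold change was −0.25 over the 33 genes with an NF-Y box and −0.11 over the 11 without one. For the CHR the median was −0.18 over 35 genes with it and −0.25 over 9 without, while 10 of the 35 (28.6%) and 1 of the 9 (11.1%) were past the test. With the block, these shares were 51.4% and 55.6%, so the measures did not share an order. Over all genes tested with a promoter entry, 5.09% with a CHR and 5.56% without one were lower past the test. With the block it was 16.6% of each. CENPA, the highest of the 52 genes, held 2 matches of each kind, and CKAP2, CDC25B and CDC25C held none. Among all genes tested with a promoter entry, 6.05% of those with an NF-Y box were lower past the test in edgeR and 5.16% of those without one. With the block these shares were 17.8% and 16.0%. The median log2 fold changes of these 2 sets were −0.02 and −0.01.

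**Figure D5:**
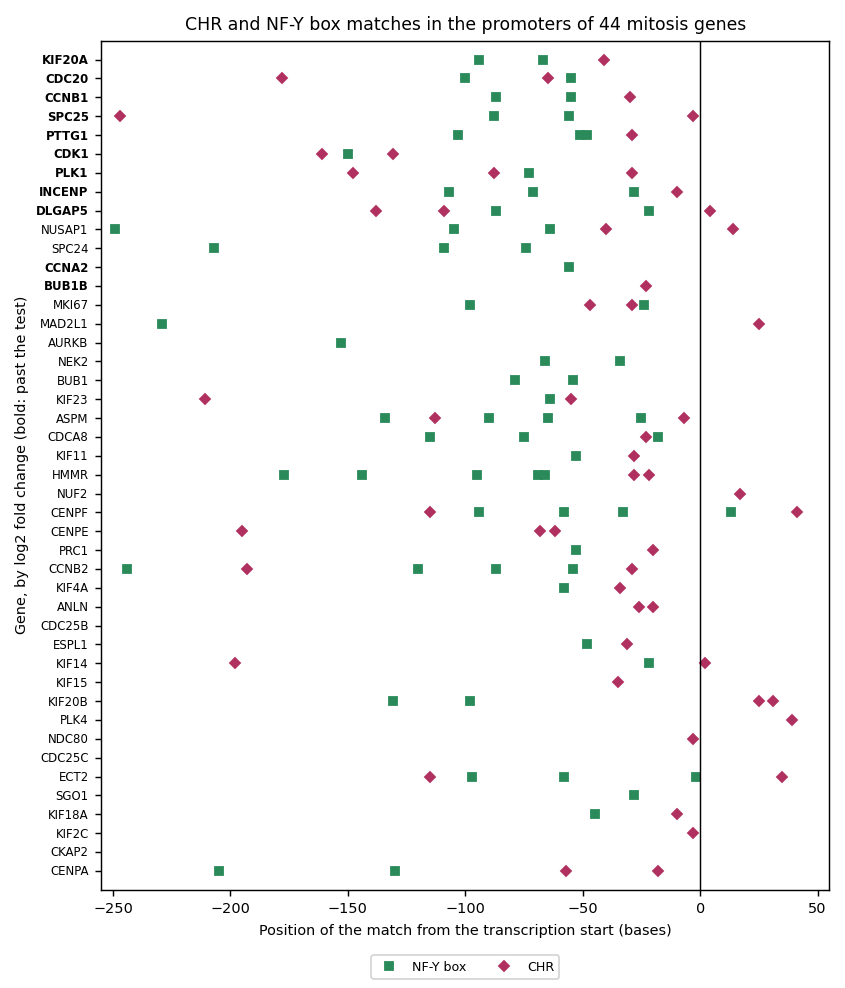
Position of each CHR match (diamonds) and NF-Y box match (squares) relative to the RefSeq transcription start (horizontal axis, bases, with the start at 0) in the promoters of 44 genes, ordered from the lowest to the highest log2 fold change, with the 11 genes past the test in bold. The median position is −72 for squares and −29 for diamonds, and squares are fewer in the lower part of the plot.

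Some counts could hold reads of other genes. Exons on the same strand are shared with another gene in 4 of the 52, namely NUSAP1 with AC087721.2, BUB1B with BUB1B-PAK6, PRC1 with AC068831.7 and CENPA with SLC35F6. Exons on the opposite strand are shared in 10, among them KIF20A with BRD8 and CDC23, PLK1 with ERN2 and CCNA2 with EXOSC9, and because the strand setting of the counting is not given, the reads of such pairs cannot be told apart. For 13 of the 52 genes GENCODE names a pseudogene, including those of CDC20, DLGAP5 and PTTG1, and none of these pseudogenes has a row in the table. The values of these genes are therefore less certain than those of CCNB1, CDK1 and INCENP, for which neither kind of sharing was found.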

How the data were processed

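For each of 6 MHCC-97H libraries, the authors deposited counts by gene as whole numbers without normalization. Polyadenylated RNA was selected with oligo(dT) beads. The submitters' processing notes name HISAT2, StringTie and GRCh38. The counting step, its strand setting, the annotation, and whether the counts are reads or rounded estimates are not given in the sources used here. The columns of all 6 libraries were used. In edgeR 4.0.16 (R 4.3.3, limma 3.58.1), rows were filtered by filterByExpr (minimum count 10, minimum total 15), normalized by TMM and fitted by robust quasi-likelihood models without covariates over 15957 rows, with Benjamini-Hochberg adjustment over all of them. A gene passed at an adjusted p under 0.05, and a DEG also had a fold change above 1.5. Standard errors and 95% intervals came from the F statistic. Counting error alone is covered by the limit of 3 counts for a count of 0. The main fits had no block, since the study's methods name none. Deviations from the group means correlated at 0.171, 0.18 and 0.312 within a replicate number and at −0.231 to 0.0795 between numbers, so the numbers were taken as pairing the libraries, although no source says what they mark.

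Alternatives were DESeq2 1.42.0, other normalizations, no filter, Ensembl rows only, an unadjusted p, a replicate block, and leaving out single libraries. DESeq2 with the block, and leaving out both libraries numbered 3, were chosen after seeing the data. The edgeR and DESeq2 steps were tested on simulated data with known fold changes. Those data held no effect of the replicate number, so they cannot check the calls gained with the replicate block. Coordinates came from GENCODE 29 (GRCh38), in which all 19974 Ensembl identifiers of the table were found, and promoters from RefSeq (GRCh38.p14). The 52 genes and the further lists were chosen with earlier results of these data known. Named were all genes past the test, the 8 with the smallest p among those past it with the block only, the 6 highest and 6 lowest fold changes, the 3 nearest 0, 1 or 2 per role, and in each further list the 3 with the smallest adjusted p. The remaining genes of the 52 lie outside this rule and were named after their values were seen. Single values of some marker genes are not reported here.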

Additional observations from a re-analysis of the deposited data

How the results depend on the processing

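The count of 11 genes past the test was 10 to 13 with other scalings, without the low count filter or with Ensembl rows only. It was 20 with DESeq2, 27 with the replicate block, 26 with DESeq2 and the block and 26 at an unadjusted p under 0.05, and 1 to 12 when a single library was left out. Removal of non-treated replicates 1, 2 and 3 left 1, 3 and 6 genes, where 202, 716 and 625 rows of the whole table passed. Removal of 6j replicates 1, 2 and 3 left 12, 1 and 10 genes, beside 1608, 217 and 1095 rows. In the main fit 1462 rows of the whole table passed in either direction. It was 1408 to 1594 rows with other scalings, without the low count filter or with Ensembl rows only. With DESeq2 2340 rows passed, with the replicate block 4297, with DESeq2 and the block 3513 and at the unadjusted p 4175. The count of 0 genes that also changed more than 1.5-fold was 1 with upper quartile normalization, with DESeq2 and the block, and without both libraries numbered 3, and 0 to 2 when a single library was left out. The median log2 fold change of −0.18 stayed between −0.23 and −0.16 in every alternative run. Of 15 alternatives for each of 53 named genes, 643 kept direction and side of the threshold, 107 lost the call, 39 gained it and 6 changed sign. The sign changed in genes near 0. When a single library was left out, FOXM1 ranged from −0.091 to 0.028 (also 0.016 without 6j replicate 3), SGO1 from −0.026 to 0.098, KIF18A from −0.017 to 0.055 and KIF2C from −0.0081 to 0.072, and WEE1 was at −0.0062 without both libraries numbered 3. The cause of these changes was not tested, and fits that left a library out also had fewer libraries. Each of the 52 genes had at least 435 counts in every library, and with 3 libraries per group the calls rest mainly on the estimated spread between libraries.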

Other observations

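Tubulin genes were chosen after falls of some of them had been seen among the further lists. Their count and median are therefore not independent of that choice. Of 17 alpha and beta tubulin rows of the table, 14 were tested. At an edgeR adjusted p under 0.05, 6 fell, beside 4.37% of all rows tested. They were TUBA1B, TUBA1C, TUBB, TUBB2A, TUBB4B and TUBB6. TUBA1B, TUBA1C, TUBB and TUBB4B were also counted in the further spindle list. The median log2 fold change over the 14 was −0.52. TUBA1B was at 2190, 2007 and 2061 CPM in non-treated and at 1449, 1083 and 1290 CPM in 6j treated cells, and TUBB at 3056, 2819 and 2837 CPM against 2034, 1501 and 1818 CPM, with no overlap between the groups in either gene. As in the mitosis genes, 6j replicate 2 was the lowest library of both. TUBB6 was at 145, 148 and 157 CPM against 121, 103 and 126 CPM, a log2 fold change of −0.36 (SE 0.09, edgeR adjusted p = 0.0431). TUBA1A and TUBA4A had log2 fold changes of −0.30 and −0.36 and did not pass (edgeR adjusted p = 0.187 and 0.066). The tubulin genes are close copies of each other, so reads could be split among them in counting and the value of each one is uncertain. A difference between tubulins and the mitosis genes was not tested.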
